A study of Saccharomyces cerevisiae with 7 samples.

Results

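The galactose utilisation genes of budding yeast, Saccharomyces cerevisiae, were followed here through RNA bound to ribosomes. The 9 genes GAL1, GAL2, GAL3, GAL4, GAL7, GAL10, GAL80, PGM2 and GCY1 were picked by symbol from the 6341 features of each deposited count file, and all 9 were found in every library. The series asks whether ribosomes that lack the small-subunit protein Rps26 hold other mRNAs than ribosomes that contain it. The galactose genes bear on a feature of its design: the cells that supplied both ribosome classes had been grown in galactose and were then moved to glucose, whereas the comparison strain was grown in glucose throughout.

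All 7 libraries came from BY4741, a laboratory strain of the S288C background, and all cultures received 100 µg/ml cycloheximide before harvest, which stalls elongating ribosomes. The shifted strain carried RPS3 and RPS26A each behind the GAL1 promoter (HisMX6::pGAL1-Rps3, NatMX6::pGAL1-Rps26A), a deletion of the second Rps26 gene (Rps26B::KanMX6) and the plasmid pCM189--Rps3-TAP, which supplies tagged Rps3. It grew in YPGal with 0.2 µg/ml doxycycline until mid-log phase and was then put into YPD, the glucose medium, at an OD600 of 0.15 and without doxycycline for 4 h. From each lysate, tagged ribosomes were bound to IgG beads and released with TEV protease, giving the 3 Minus_Rps26 libraries, and untagged ribosomes were recovered from what had not bound, on a sucrose gradient, giving the 3 Plus_Rps26 libraries. Rps3_TAP is a single library from BY4741 with Rps3-TAP::HisMX6, with the tag on the chromosomal RPS3 gene, grown in YPD to mid-log phase and bead-purified. Rps3_TAP therefore differs from the shifted strain in growth history, in genotype and, for Plus_Rps26, in purification, and these cannot be told apart. In the same way, more mRNA per cell and more of it bound to that class of ribosome cannot be told apart in these libraries. No library came from cells before the shift. Below, rose and fell therefore mean higher or lower than in Rps3_TAP, not a change over time.

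As background, yeast takes up galactose through the permease Gal2 and converts it to glucose 6-phosphate by the Leloir pathway. Galactokinase (Gal1) phosphorylates galactose, the uridylyltransferase Gal7 exchanges it onto UDP-glucose, the epimerase and mutarotase Gal10 restores UDP-glucose, and phosphoglucomutase, mainly Pgm2, makes glucose 6-phosphate. Transcription is driven by the activator Gal4, which the inhibitor Gal80 holds inactive until the sensor Gal3, a relative of galactokinase, binds galactose and takes up Gal80. Glucose represses the system, largely through the repressor Mig1, and GCY1, an aldo-keto reductase acting as a glycerol dehydrogenase, is a Gal4 target outside the sugar pathway.

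The positions, in sacCer3 (RefSeq's R64), put the genes of 3 enzymes side by side on chromosome II: GAL7 (YBR018C) at 274427-275527, GAL10 (YBR019C) at 276253-278352 and GAL1 (YBR020W) at 279021-280607. GAL2 (YLR081W) lies on chromosome XII at 290212-291936, GAL3 (YDR009W) on chromosome IV at 463434-464996 and GAL4 (YPL248C) on chromosome XVI at 79711-82356. GAL80 (YML051W) and PGM2 (YMR105C) are on chromosome XIII, at 171594-172901 and 475897-477606, and GCY1 (YOR120W) is on chromosome XV at 551114-552052. These spans are coding sequence without UTRs and run from 939 bases for GCY1 to 2646 bases for GAL4.

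Because the series concerns the bases just upstream of the start codon, the 20 bases before the start codon of each gene are shown as the authors' deposited table gives them, 5′ to 3′, with positions -4 to -1 in capitals.
GAL1: gtcaaggagaaaaaacTATA
GAL2: aaaaaaataattctttCATA
GAL3: aaggtagggcaacacaTAGT
GAL4: agaagcaagcctcctgAAAG
GAL7: agttgaatattccctcAAAA
GAL10: tttttgaaaattcaatATAA
GAL80: ccgttctttccactccCGTC
PGM2: gtaacaaaagttaacaTAAC
GCY1: tactaaattaagatagAAAA
Of these sequences, 7 have A at -3, the base that 60.8% of the 5684 genes with a deposited sequence have there. The exceptions are GAL10, with T (10.9% of genes), and GAL80, with G (19.5% of genes). GAL7 and GCY1 carry AAAA from -4 to -1, as 6.3% of genes do. GAL80 stands apart from the other members in its upstream bases, with 1 A among the 20, where the others have 8 to 12 and the median gene has 8.

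The libraries held 11590456, 17136240 and 21405499 counts for Minus_Rps26, 9605899, 12387735 and 15279242 for Plus_Rps26 and 16145589 for Rps3_TAP. The members took 0.0114% to 0.0239% of them, so several values below rest on few reads. TMM scaling factors ran from 0.6143 in Rps3_TAP to 1.446 in Minus_Rps26 replicate 1, and scaling by total counts instead moved the median of all features by up to 1.21 on the log2 scale, so changes are given relative to the bulk of features. BY4741 is of mating type a, and 5 of 5 MATa markers were detected in every library, with the pheromone receptor gene STE2 at 402 to 1320 CPM (counts per 1e6, after scaling). Of the 3 MATalpha markers, MF(ALPHA)1 stood at 0.106 to 0.627 CPM, MF(ALPHA)2 at 0 to 1.36 CPM and STE3, the other pheromone receptor gene, at 5.04 to 21.9 CPM. MET17, deleted in BY4741, had 0 reads in all 7 libraries. LEU2, also deleted, had 7 reads in Plus_Rps26 replicate 3 and 0 in the others. HIS3, mutated in BY4741 too, had 1701 to 3423 reads in every library. Whether that mutation removes all of HIS3 was not checked, and the source of these reads was not tested. RPS26A, the gene placed under the GAL1 promoter, was far below Rps3_TAP in the shifted strain, with a log2 difference of -7.54 (adjusted p = 9e-06, edgeR's quasi-likelihood test).

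Most of the galactose genes were rare on ribosomes in every library. Levels are CPM with TMM scaling over the 7 libraries, and between genes they are compared per kilobase of coding sequence. On that scale GAL2, GAL4, GAL10, GAL1, GAL3 and GAL7 stood, in rising order, at 1.093 to 8.392 CPM per kb on average in Minus_Rps26, within the lowest 13.5% of nuclear protein-coding genes. GAL80, at 30.29 ± 7.12, PGM2, at 19.48 ± 6.75, and GCY1, at 37.22 ± 10.1 CPM per kb (SD, n = 3), stood between the 26.2nd and 48.5th percentile. In Minus_Rps26 the neighbours GAL4 and GAL10, GAL1 and GAL3, and GAL80 and GCY1 were closer to each other than the larger of their SDs. In Plus_Rps26 the order was GAL2, GAL4, GAL1, GAL3, GAL10, GAL7, GAL80, PGM2 and GCY1, from 1.699 ± 0.847 to 48.30 ± 15 CPM per kb (SD, n = 3), and GAL2 and GAL4, GAL3 and GAL10, GAL10 and GAL7, and GAL80 and PGM2 were closer than the larger of their SDs. Rps3_TAP put GAL2 (0.8183 CPM per kb) and GAL1 (0.953 CPM per kb) at the bottom and PGM2 (114.7 CPM per kb) at the top, at the 76.6th percentile of genes. PGM2 stood at the 26.2nd percentile in Minus_Rps26 and the 45.3rd in Plus_Rps26.

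**Figure D1:**
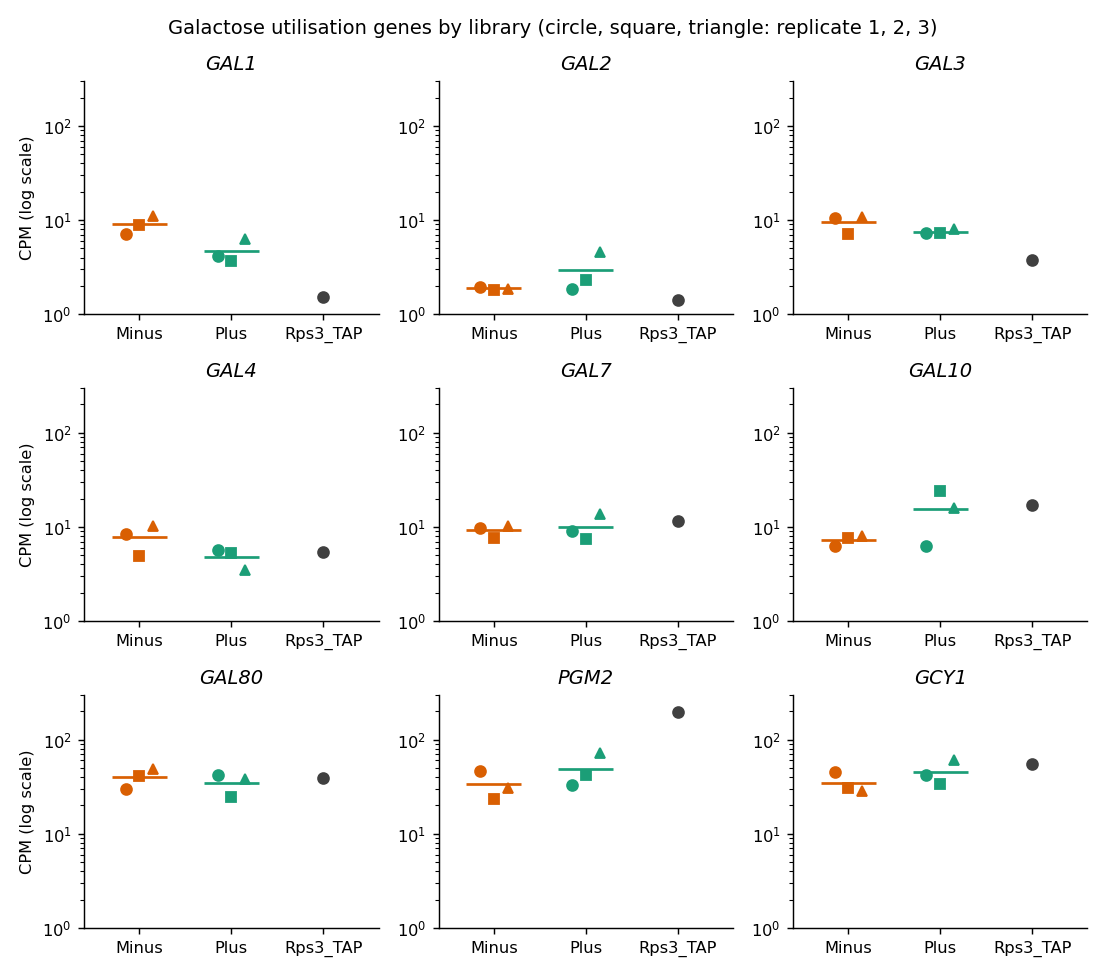
Level of each of the 9 genes in each of the 7 libraries, in CPM with TMM scaling on a log axis; points are libraries and horizontal bars are means of the 3 libraries of a ribosome class. GAL1, GAL2 and GAL3 in Rps3_TAP lie below all 6 libraries of the shifted strain, and PGM2 in Rps3_TAP lies above all 6.

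The shifted strain, 4 h after its move from galactose to glucose, was compared with Rps3_TAP, which differs from it in genotype as well as in growth history. The test separated 2 members: PGM2 was lower in the shifted strain, and GAL1 was higher on Minus_Rps26 ribosomes. The other 7 members were not called against Rps3_TAP by that test. Averaged over both ribosome classes, edgeR's quasi-likelihood test called 1 of 9 members (PGM2), where it called 13.1% of the 5815 features tested (195 higher, 3.35%, and 566 lower, 9.73%). On Minus_Rps26 alone 2 of 9 members were called (26.2% of features; 616 higher, 10.6%, and 908 lower, 15.6%), and on Plus_Rps26 alone 0 of 9 (1.48% of features; 12 higher, 0.206%, and 74 lower, 1.27%), with 2 members at an unadjusted p under 0.05, 1 called by DESeq2 and none by limma-voom. The median log2 difference over both classes was -0.06 for the members and 0.12 for all features. All of these comparisons use the same Rps3_TAP library, so they are not independent, and the spread of that library is taken from the other groups.

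Of the genes for the first step inside the cell, GAL1, the galactokinase gene, had 120, 214 and 341 reads in Minus_Rps26, 47, 35 and 61 in Plus_Rps26 and 15 in Rps3_TAP. Its levels were 7.16, 8.89 and 11.1 CPM in Minus_Rps26, 4.16, 3.72 and 6.37 CPM in Plus_Rps26 and 1.51 CPM in Rps3_TAP, where 15 reads leave a 95% Poisson interval of 0.846 to 2.49 CPM. Every shifted library was thus above the single Rps3_TAP library and above the upper end of its counting interval, and the 2 ribosome classes did not overlap. On Minus_Rps26, GAL1 rose by 2.58 ± 0.716 on the log2 scale over Rps3_TAP (5.97-fold, adjusted p = 0.0258, quasi-likelihood test). That call was lost without Minus_Rps26 replicate 2 (2.59, adjusted p = 0.0525) and without Minus_Rps26 replicate 3 (2.40, adjusted p = 0.0823). Over both classes the log2 difference was 2.11 ± 0.680 (adjusted p = 0.0628), and on Plus_Rps26 it was 1.65 ± 0.691 (adjusted p = 0.211). The fit over both classes counts eluate and flowthrough of a lysate as separate libraries. With their counts summed per replicate number, GAL1 passed the threshold (2.30, adjusted p = 0.00975) and features called went from 761 to 2233; GAL1 also passed with DESeq2 (2.07, adjusted p = 0.0154), without Plus_Rps26 replicate 1 (2.14, adjusted p = 0.0353) and without both libraries numbered 1 (2.24, adjusted p = 0.0266). The sums were of raw counts, and Minus_Rps26, with more reads in each replicate number, gave most of the GAL1 reads. Summing thus weighs Minus_Rps26 more than the average over both classes does, and it rests on pairing by replicate number. The correlations between libraries with the same number, given with the processing, do not bear that pairing out. GAL1 was at the 96.0th percentile of all features by its log2 difference of 2.11 over both classes.

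GAL3, whose protein senses galactose and resembles galactokinase in sequence, had the next largest positive difference. It stood at 10.5, 7.19 and 10.9 CPM in Minus_Rps26, 7.34, 7.34 and 8.04 CPM in Plus_Rps26 and 3.73 CPM in Rps3_TAP. All 6 shifted libraries lay above Rps3_TAP, whose 37 reads have an interval of 26.1 to 51.0 reads. The log2 difference over both classes was 1.19 ± 0.550 (2.27-fold, adjusted p = 0.167), and on Minus_Rps26 it was 1.35 ± 0.578 (adjusted p = 0.102). By this test GAL3 was not called.

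GAL2, the permease gene, was near the lower limit of measurement. It had 33, 44 and 57 reads in Minus_Rps26, 21, 22 and 44 in Plus_Rps26 and 14 in Rps3_TAP, or 1.97, 1.83 and 1.86 CPM, 1.86, 2.34 and 4.6 CPM, and 1.41 CPM. All 6 shifted libraries were above Rps3_TAP, but the interval of the 14 reads, 7.65 to 23.5, is wide, and the log2 difference of 0.73 ± 0.786 was smaller than its SE. GAL1, GAL2 and GAL3 were the 3 of 9 members with Rps3_TAP below all 6 shifted libraries, an order that 25.8% of features showed.

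GAL7 and GAL10, the neighbours of GAL1 that Gal4 also drives, did not show that order. GAL7, the uridylyltransferase gene, stood at 9.79, 7.69 and 10.2 CPM in Minus_Rps26, 9.11, 7.44 and 13.6 CPM in Plus_Rps26 and 11.6 CPM in Rps3_TAP, inside the range of the shifted libraries. Its log2 difference over both classes was -0.27 ± 0.485 (adjusted p = 0.725). GAL10, the epimerase gene, stood at 6.33, 7.65 and 7.93 CPM in Minus_Rps26, 6.28, 23.8 and 16 CPM in Plus_Rps26 and 16.9 CPM in Rps3_TAP. Plus_Rps26 replicates 2 and 3 were thus near Rps3_TAP, while replicate 1 and all of Minus_Rps26 were lower. The log2 difference was -0.68 ± 0.574 over both classes (adjusted p = 0.442) and -1.21 ± 0.611 on Minus_Rps26 (adjusted p = 0.156). The last value passed the threshold without Plus_Rps26 replicate 1 (adjusted p = 0.0311). GAL10 is known to have an antisense noncoding transcript in glucose-grown cells, and how the deposited counts treat strand is not stated in any source used here, so sense and antisense reads at GAL10 cannot be told apart.

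PGM2, the major phosphoglucomutase gene, had the largest difference of the 9 over both classes, in either direction. It stood at 46.0, 23.4 and 30.6 CPM in Minus_Rps26, 32.8, 42.3 and 71.5 CPM in Plus_Rps26 and 196 CPM in Rps3_TAP, from 1946 reads. The highest of the 6 shifted libraries was far below Rps3_TAP, an order found in 1 of 9 members and in 25.1% of features. Over both classes PGM2 fell by 2.28 ± 0.398 on the log2 scale (4.86-fold lower, adjusted p = 0.00631), and 2.4% of features had a lower value. On Minus_Rps26 it fell by 2.56 ± 0.457 (adjusted p = 0.00522), and on Plus_Rps26 the difference of -2.0 ± 0.462 missed the threshold (adjusted p = 0.0611). With total-count scaling the values over both classes and on Minus_Rps26 became -1.49 (adjusted p = 0.0758) and -1.34 (adjusted p = 0.0647), or -2.47 and -2.73 relative to the median of all features under that scaling.

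The regulators GAL4 and GAL80 and the enzyme gene GCY1 were not called. GAL80, which encodes the inhibitor of Gal4, was at 29.8, 40.8 and 48.3 CPM in Minus_Rps26, 42.0, 24.4 and 37.7 CPM in Plus_Rps26 and 38.7 CPM in Rps3_TAP, and its log2 difference of -0.06 ± 0.411 was the smallest of the 9. GAL4, the activator gene, was at 8.36, 4.86 and 10.2 CPM, 5.66, 5.32 and 3.45 CPM, and 5.44 CPM in the same order, a log2 difference of 0.17 ± 0.594. For both genes Rps3_TAP lay inside the range of the shifted libraries. GCY1 was at 45.8, 30.8 and 28.3 CPM in Minus_Rps26, 41.7, 33.5 and 60.9 CPM in Plus_Rps26 and 54.5 CPM in Rps3_TAP. Of its 6 shifted libraries, 1 was above Rps3_TAP and the others below, and the log2 difference was -0.45 ± 0.405 (adjusted p = 0.464).

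**Figure D2:**
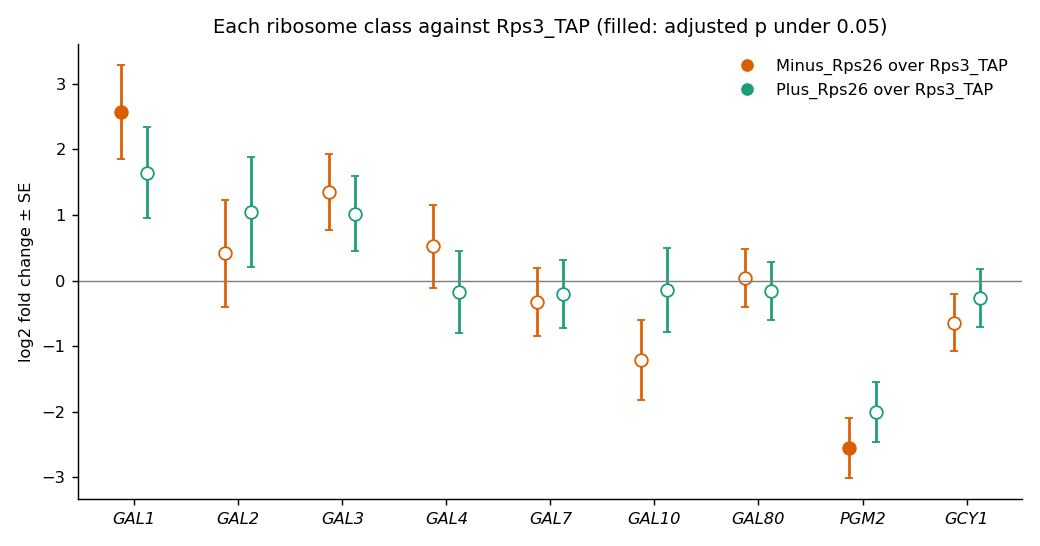
Log2 fold change of each of the 9 genes against the single Rps3_TAP library, for Minus_Rps26 and for Plus_Rps26; points are edgeR estimates, bars are their SE and filled points had an adjusted p under 0.05. GAL1 (2.58) and PGM2 (-2.56) on Minus_Rps26 are the filled points.

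The authors' deposited table for the eluted libraries against Rps3_TAP gives adjusted p-values under 0.05 for 4 members, at log2 fold changes of 2.01 for GAL1, 1.13 for GAL3, -1.33 for GAL10 and -2.30 for PGM2. The normalized sheet deposited beside that table holds equal values in its columns for the eluates numbered 1 and 3 in 5898 of 5898 rows. The column numbered 3 was proportional to the counts of Minus_Rps26 replicate 1, within 0.001 of the median ratio, in 5358 of the 5358 rows with over 50 counts in that replicate, and to those of replicate 3 in 16 of 5421. The mean level in the authors' deposited table equals the mean of the sheet's columns in 5898 of 5898 rows, so replicate 1 entered that table under both names. In the authors' deposited table for the flowthrough libraries against Rps3_TAP, PGM2 alone among the members has an adjusted p under 0.05 (log2 fold change -1.63, adjusted p = 0.0307). The share of all features with an adjusted p under 0.05 was not counted for either table, so these member counts have no background.

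Between the 2 ribosome classes of the shifted strain, which share culture and lysate, the galactose genes were not separated by the test. Of 9 members 0 were called, against 16% of 5668 features (459 higher in Minus_Rps26, 8.1%, and 448 lower, 7.9%); GAL1 and GAL10 had an unadjusted p under 0.05, DESeq2 called GAL10 and limma-voom none. With the replicate number as a block, 0 members and 0 of all features were called, with 1990 features at an unadjusted p under 0.05. GAL1 was the only member whose 3 Minus_Rps26 libraries were all above the 3 Plus_Rps26 libraries, an order seen in 21% of features; no member had the opposite order, seen in 17.4% of features, so the classes did not overlap for 1 of 9 members and for 38.3% of features. Its log2 ratio of Minus_Rps26 to Plus_Rps26 was 0.78, 1.26 and 0.80 in replicates 1, 2 and 3, with an estimate of 0.93 ± 0.409 (1.90-fold, adjusted p = 0.124). With total-count scaling GAL1 passed the threshold (1.73, adjusted p = 0.03), where the median of all features was 0.75.

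GAL10 lay in the other direction, with log2 ratios of 0.01, -1.64 and -1.01 and an estimate of -1.08 ± 0.468 (adjusted p = 0.120). Replicate 1 was thus level in both classes and replicates 2 and 3 were lower in Minus_Rps26. Without Plus_Rps26 replicate 1 the estimate was -1.51 (adjusted p = 0.00486), and without both libraries numbered 1 it was -1.39 (adjusted p = 0.0112). The authors' deposited table of this comparison gives GAL10 as the only member with an adjusted p under 0.05, at a log2 fold change of -0.99 and an adjusted p of 0.0399. How many of all features pass 0.05 in that table was not counted, so no background share stands beside GAL10.

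None of the other 7 members had an unadjusted p under 0.05 between the classes. The log2 ratios of GAL2 were 0.08, -0.36 and -1.31, and those of PGM2 were 0.49, -0.86 and -1.22, in both cases with replicate 1 on the other side of 0. GAL4 had 0.56, -0.13 and 1.57, and GAL80 had -0.50, 0.74 and 0.36. GAL3, GAL7 and GCY1 had estimates of 0.33 ± 0.365, -0.12 ± 0.378 and -0.38 ± 0.322. PGM2 passed the threshold without both libraries numbered 1 (-1.13, adjusted p = 0.0168). With a fitted trend of the log2 ratio on coding length removed, GAL10 stood at -1.66 (adjusted p = 0.187) and GAL1 at 0.70 (adjusted p = 0.323).

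**Figure D3:**
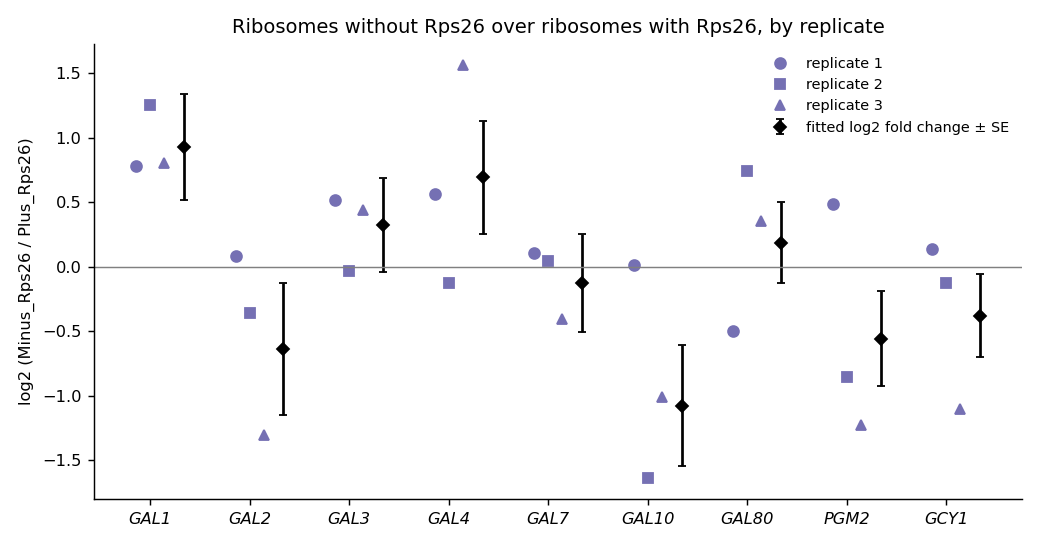
Log2 ratio of Minus_Rps26 to Plus_Rps26 for each of the 9 genes; coloured symbols are the 3 replicates, black diamonds are edgeR estimates and bars their SE. GAL1 is above 0 in all 3 replicates (0.78 to 1.26), GAL10 is above 0 in 1 replicate by 0.01, and GAL2, GAL3, GAL4, GAL7, GAL80, PGM2 and GCY1 have replicates on both sides of 0.

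Ratios between members within a library need no scaling between libraries, and they restate the levels of GAL1, GAL7 and GAL10 without it; they were chosen after the levels were seen and carry no test. Per length of coding sequence, GAL1 over GAL10 was 1.5, 1.54 and 1.86 in Minus_Rps26, 0.876, 0.207 and 0.528 in Plus_Rps26 and 0.118 in Rps3_TAP. The 3 sets of libraries did not overlap and followed one order, with Minus_Rps26 highest and Rps3_TAP lowest. GAL1 over GAL7 had the same order, at 0.508, 0.803 and 0.753, then 0.317, 0.347 and 0.326, then 0.0905. GAL7 over GAL10, the ratio between the neighbours that were not called, was 2.95, 1.92 and 2.46, then 2.77, 0.596 and 1.62, then 1.31. Here the ribosome classes overlapped, and Rps3_TAP lay inside the range of Plus_Rps26. All 3 Minus_Rps26 libraries were above Rps3_TAP in this ratio too. Between the classes, GAL10 differed about as much as GAL1, in the other direction (-1.08 against 0.93).

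Among the regulators, GAL3 over GAL80, sensor against inhibitor, was 0.295, 0.148 and 0.189 in Minus_Rps26, 0.146, 0.252 and 0.178 in Plus_Rps26 and 0.0806 in Rps3_TAP, below all 6 shifted libraries. GAL80 over GAL4, inhibitor against activator, ran from 7.21 to 22.1 in the shifted strain and was 14.4 in Rps3_TAP, inside that range. PGM2 over its paralog PGM1 was 0.574, 0.333 and 0.379, then 0.313, 0.451 and 0.618, then 0.867 in Rps3_TAP, above all 6. PGM2 was therefore lower relative to PGM1 in every shifted library. How reads that match both paralogs were counted is not stated, and alignments that were not unique numbered 0 in replicate 3 of both classes.

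**Figure D4:**
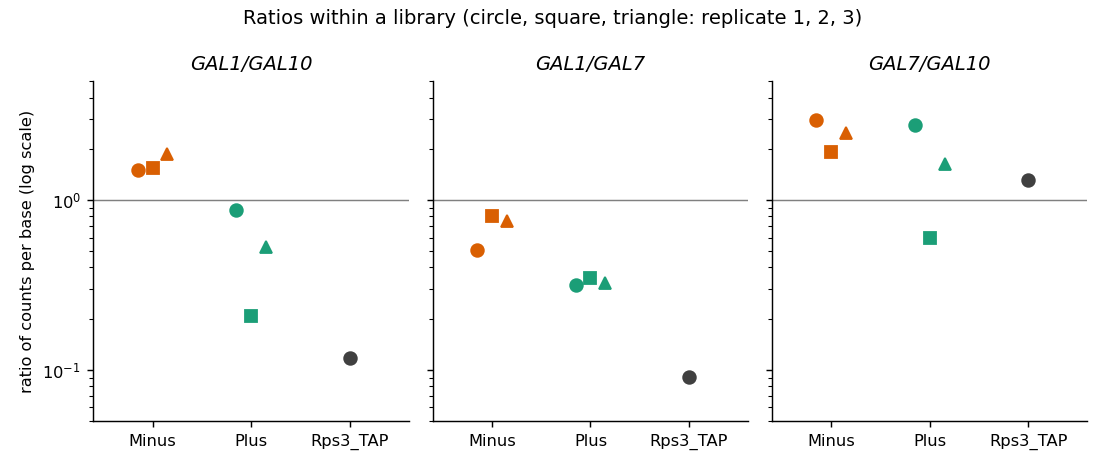
Ratios of read counts per coding length within each library for GAL1 over GAL10, GAL1 over GAL7 and GAL7 over GAL10, on a log axis; points are the 7 libraries by group. GAL1 over GAL10 and GAL1 over GAL7 are highest in Minus_Rps26, lower in Plus_Rps26 and lowest in Rps3_TAP (0.118 and 0.0905).

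The remaining genes of the pathway and of glucose repression give the setting. The other Leloir pathway genes were both called: PGM1, the minor phosphoglucomutase, fell by 1.33 ± 0.301 on the log2 scale in the shifted strain against Rps3_TAP (2.52-fold lower, adjusted p = 0.0183), and UGP1, which makes UDP-glucose, fell by 1.32 ± 0.343 (2.49-fold lower, adjusted p = 0.0319). PGM1 was at 70.3 to 116 CPM in the 6 shifted libraries and 227 CPM in Rps3_TAP, and UGP1 at 219 to 428 and 747 CPM, so for both genes all 6 shifted libraries were below Rps3_TAP. Of all features, 9.73% were called lower and 25.1% had Rps3_TAP above all 6 libraries. Elsewhere in the pathway GAL1, GAL7 and GAL10 were not called over both classes, at 2.11, -0.27 and -0.68. YPR1, a paralog of GCY1, fell by 1.44 ± 0.299 (2.71-fold lower, adjusted p = 0.0129), while GCY1 itself was not called.

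Of 4 further Gal4 targets (MTH1, PCL10, FUR4 and LAP3), 0 were called in either direction over both classes, where 13.1% of features were. Their median log2 difference was -0.02. LAP3, an aminopeptidase gene, was lower on Minus_Rps26 against Rps3_TAP (-1.22, adjusted p = 0.032). Averaged over both classes, the genes on either side of the chromosome II cluster were level, with KAP104 at -0.02 and FUR4 at -0.12. By class, KAP104 stood at 0.43 on Minus_Rps26 and -0.46 on Plus_Rps26, and FUR4 at 0.06 and -0.31. Between the classes KAP104 differed by 0.88 ± 0.330 and FUR4 by 0.37 ± 0.310, and none of these was called. Of 15 genes of the glucose repression machinery, 0 were called higher and 1 lower over both classes, against 3.35% and 9.73% of features. Their median was 0.09 against 0.12 for all features. On Minus_Rps26 alone 1 was called higher and 2 lower (10.6% and 15.6% of features). On Plus_Rps26 alone it was 0 and 1 (0.206% and 1.27% of features). The gene called lower over both classes was HXK2, the hexokinase with a role in glucose repression. It was lower by 2.78 ± 0.338 (6.89-fold, adjusted p = 0.0015, quasi-likelihood test). HXK2 stood at 2980 CPM in Rps3_TAP and at 259 to 639 CPM in the shifted libraries.

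Of 12 glucose-repressed genes for other carbon sources, 0 were called higher and 2 lower, with a median log2 difference of -0.35, where 3.35% of all features were called higher and 9.73% lower. MDH2, cytosolic malate dehydrogenase, fell by 3.97 ± 0.267 (15.7-fold lower, adjusted p = 4.32e-05), and ACS1, acetyl-CoA synthetase, fell by 1.44 ± 0.423 (adjusted p = 0.0483). In the same list ADH2, alcohol dehydrogenase, had a log2 difference of 2.51 ± 0.868 (adjusted p = 0.078). For JEN1, a lactate permease, it was 1.19 ± 0.551 (adjusted p = 0.167), and neither gene was called. ADH2, JEN1 and ICL1 had all 6 shifted libraries above Rps3_TAP, an order that 25.8% of features showed. MDH2, ACS1, HXK1 (-1.83 ± 0.584, not called) and SUC2 had all 6 below it, as 25.1% of features did. Between the ribosome classes, ADR1, an activator of alcohol metabolism genes, was higher in Minus_Rps26 (1.22 ± 0.274, adjusted p = 0.0357) and ADH2 was lower (-1.79 ± 0.527, adjusted p = 0.045). REG1, a regulatory subunit of the phosphatase that acts in glucose repression, was higher in Minus_Rps26 (1.58 ± 0.377, adjusted p = 0.0357). All 3 calls come from the fit without the replicate block and are lost with the block, and with the length trend removed, since each of these fits called 0 of all features. In ADH2, as in GAL10, Plus_Rps26 replicate 1 (8.31 CPM) was close to Minus_Rps26 (6.33 to 10.2 CPM), while replicates 2 and 3 of Plus_Rps26 were at 31.4 and 44.0 CPM.

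**Figure D5:**
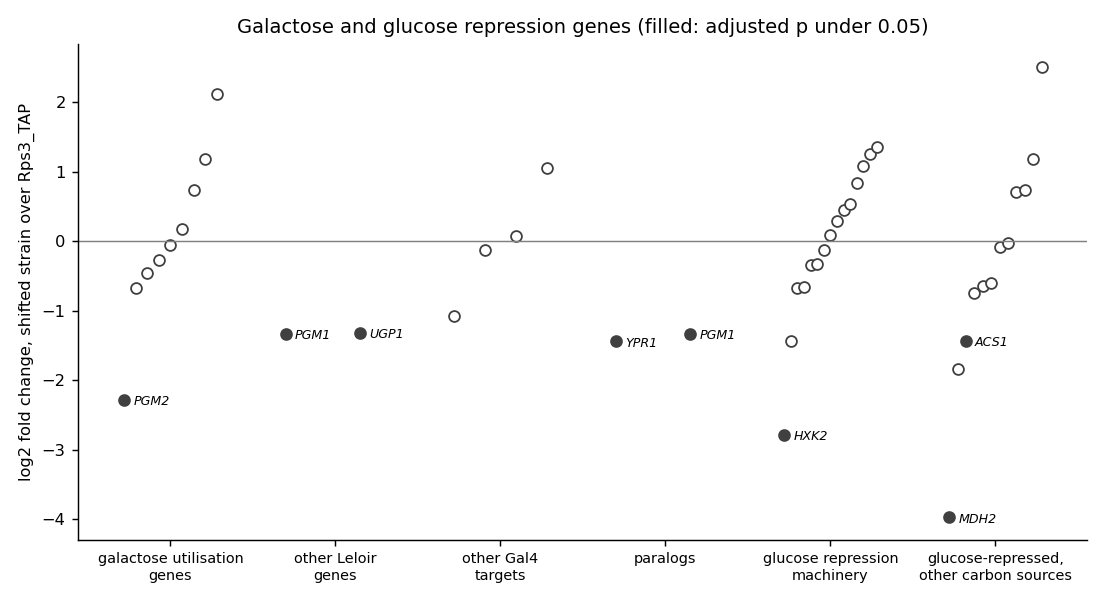
Log2 fold change of the shifted strain (mean of both ribosome classes) against Rps3_TAP for the members and the related gene lists; each point is a gene, filled where the adjusted p was under 0.05, and PGM1 stands in 2 lists. PGM2, PGM1, UGP1, YPR1, HXK2, MDH2 and ACS1 are filled below 0.

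The members did not move as a block across the 7 libraries. Given as a description, since the libraries share groups and scaling, Pearson's r of log2 levels was 0.87 between GAL1 and GAL3, 0.76 between PGM2 and GCY1, 0.76 between GAL7 and GCY1, -0.56 between GAL1 and GAL10 and -0.78 between GAL1 and PGM2. Of 5027 genes with a mean of at least 10 CPM, those whose profile was most like the mean profile of GAL1, GAL7 and GAL10 were PMT5 (r = 0.991), MEP2 (0.979), OSM1 (0.977), ATG22 (0.973) and YJL213W (0.97). The genes averaged did not share a profile, with r of -0.13 between GAL1 and GAL7 and 0.14 between GAL7 and GAL10. Likeness to their mean is therefore not likeness to each of them.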

How the data were processed

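RNA from 2 ribosome classes of a shifted yeast strain (3 libraries each) and from Rps3_TAP (1 library) was depleted of ribosomal RNA and sequenced with a stranded kit, per the labels' protocols. The authors deposited raw counts per feature; per the submitters' processing notes, the aligner was TopHat2 2.0.9 with sacCer3, and DESeq and DESeq2 served in the comparisons. Which program counted reads, and with what strand setting, is not given in the sources used here. The authors' deposited tables hold log2 fold changes, p-values and normalized values (a signal: counts over a factor per library); these are quoted where named and were not tested.

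Closing lines of each count file were left out: 3.37% to 7.48% of reads fell in no feature and 0.148% to 2.75% were ambiguous. Alignments that were not unique numbered 0 in replicate 3 of both classes and 11530659 to 18980582 elsewhere. Main tests used edgeR 4.0.16 under R 4.3.3, with filterByExpr as given, TMM scaling, the quasi-likelihood test, and p-values adjusted by Benjamini-Hochberg over all features, called at 0.05. All 9 members passed the filter. Minus_Rps26 and Plus_Rps26 were fitted on 6 libraries, and comparisons with Rps3_TAP on all 7. The SE is the log2 fold change over the square root of F. Intervals are exact Poisson, 95%, and cover counting error only. DESeq2 1.42.0 and limma 3.58.1 (voom) were alternatives. The fit was tested on simulated counts.

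The series describes biological replicates. Eluate and flowthrough of a replicate come from the same lysate, per the labels' protocols, and the number was taken to pair them. Plus_Rps26 replicate 2 is numbered 1 in its description, and its title was used. As a check, departures from the group mean correlated at -0.24, 0.34 and 0 between libraries with the same number. These values do not bear the pairing out.

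The 9 members, the gene lists and the tests were chosen with earlier results of these data known. The genes named are the members, genes of those lists and the 5 genes most like the mean profile of GAL1, GAL7 and GAL10 (log2 of CPM + 1). At most 4 of each list were planned, called ones with the largest change first. More are named of the glucose-repressed genes for other carbon sources, some of them not called.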

Additional observations from a re-analysis of the deposited data

How the results depend on the processing

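The depth limits GAL1, GAL2 and GAL3 most, with 14 to 37 reads in Rps3_TAP, and that group is 1 library, so its own spread is unknown. Of 540 values of single genes under alternatives, 483 kept direction and side of the threshold, 35 changed sign, 18 passed the threshold newly and 4 no longer passed it. The alternative without both libraries numbered 1 was chosen after seeing the data. GAL1 on Minus_Rps26 against Rps3_TAP passed in 13 of 15 alternatives (2.20 to 3.79), and PGM2 over both classes and on Minus_Rps26 in 14 of 15 each. The alternatives reuse the same libraries and are not independent. For GAL1 the calls lost were those without Minus_Rps26 replicate 2 or replicate 3. The causes of the changes below were not tested.

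Over both classes against Rps3_TAP, features called numbered 57 with total-count scaling (25 higher, 32 lower), 1240 with DESeq2, 2233 with counts summed per replicate, 1738 without both libraries numbered 1 and 401 to 1464 leaving out a library; members called were 0, 2, 2, 2 and 1 to 2. GAL1 joined PGM2 with DESeq2 (adjusted p = 0.0154), with summed counts (0.00975), without Plus_Rps26 replicate 1 (0.0353) and without both libraries numbered 1 (0.0266). Signs changed with total-count scaling for GAL7 (0.55), GAL10 (0.0941), GAL80 (0.80) and GCY1 (0.37), with the length trend removed for GAL4 (-0.35), and for GAL80 without Minus_Rps26 replicate 1 (0.0231) or Plus_Rps26 replicate 2 (0.0373), with -0.1608 to 0.0373 over all libraries left out in turn.

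On Minus_Rps26 against Rps3_TAP, 874 features were called with the length trend removed, 2359 with only those groups fitted, 2691 without both libraries numbered 1 and 615 to 2405 leaving out a library, with 1 to 3 members; total-count scaling gave 1644 higher and 147 lower. GAL3 passed with total-count scaling (2.57, adjusted p = 0.0296), and GAL10 with only those groups fitted (0.0466) and without both libraries numbered 1 (0.0499). Signs changed with total-count scaling for GAL7 (0.89), GAL10 (0.002) and GCY1 (0.58), with the length trend removed for GAL2 (-0.0613), GAL4 (-0.395) and GAL80 (-0.0605), and for GAL80 with DESeq2's size factors (-0.0495), DESeq2 (-0.0495), only those groups (-0.0196) and leaving out Minus_Rps26 replicate 3 (-0.1326) or Plus_Rps26 replicate 1 (-0.0147), with -0.1326 to 0.2025 over all libraries left out in turn.

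On Plus_Rps26 against Rps3_TAP, features called numbered 6 with total-count scaling, 437 with DESeq2, 50 with limma-voom, 4 with only those groups fitted, 648 without both libraries numbered 1, 141 among nuclear protein-coding genes and 29 to 586 leaving out a library, with 0 to 1 members. PGM2 was the 1 member called with DESeq2 (0.00968), among nuclear protein-coding genes (0.0465), with the length trend removed (0.0456), without Plus_Rps26 replicate 1 (0.024) and without both libraries numbered 1 (0.0227). Signs changed with total-count scaling for GAL4 (0.35), GAL7 (0.22), GAL10 (0.19), GAL80 (0.36) and GCY1 (0.16), for GAL10 without both libraries numbered 1 (0.25), and in leave-one-out for GAL10 without Plus_Rps26 replicate 1 (-0.6091 to 0.24 over all), GAL80 without Plus_Rps26 replicate 2 (-0.3069 to 0.0415) and GAL4 without Plus_Rps26 replicate 3 (-0.3014 to 0.0117).

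Between the classes, 1569 features were called with DESeq2, 0 with the length trend removed (1036 at an unadjusted p under 0.05), 2671 without both libraries numbered 1 and 0 to 2495 leaving out a library, with 0 to 1 members; total-count scaling gave 1042 higher and 37 lower. Members called were 1 with total-count scaling (GAL1), 1 with DESeq2 (GAL10, -1.14, adjusted p = 0.0486) and 2 without both libraries numbered 1. Signs changed with total-count scaling for GAL2 (0.23), GAL7 (0.67), PGM2 (0.31) and GCY1 (0.41), with the length trend removed for GAL4 (-0.0934) and GAL7 (0.001), and for GAL80 without Plus_Rps26 replicate 2 (-0.0107) and GAL7 without Plus_Rps26 replicate 3 (-0.2972 to 0.11 over all libraries left out). The replicate block called 0 features and 0 members, changed no member's call and put GAL1 at 0.94 and GAL10 at -0.90. No paired analysis was possible for the comparisons with Rps3_TAP because that group is 1 library with no number shared as a pair.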

Other observations

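URA3, the marker of the plasmid pCM189, stood at 25.3 to 104 CPM in the 6 shifted libraries and had 1 read in Rps3_TAP, which carries no plasmid by its label. RPS3, placed under the GAL1 promoter like RPS26A but also supplied by the plasmid, had a log2 difference of -1.19 between the shifted strain and Rps3_TAP (adjusted p = 0.419, quasi-likelihood test), and its chromosomal and plasmid copies are not told apart by the counts. RPS3 levels were uneven, at 1450, 3560 and 2090 CPM in Minus_Rps26, 348, 6300 and 8330 CPM in Plus_Rps26 and 7820 CPM in Rps3_TAP. Plus_Rps26 replicate 1 was thus far below Rps3_TAP, and replicate 3 was above it. In CPM per kb, RPS26A stood at 96.91 ± 26.0 in Minus_Rps26 and 237.0 ± 91.3 in Plus_Rps26 (SD, n = 3), above GAL1, the gene whose promoter it was given, at 5.709 ± 1.25 and 2.993 ± 0.895.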
